A study of Mus musculus with 68 samples.

Results

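Wnt ligands, their receptors and the proteins that modulate them were followed in RNA from pharyngeal arches 1 and 2 (PA1 and PA2) of mouse embryos. The genes were taken by symbol, with no measured value used: Wnt, Fzd, Sfrp, Dkk and Rspo genes by their usual numbering, Lgr4, Lgr5, Lgr6, Lrp5, Lrp6, Frzb, Wif1, Axin2, Lef1, Tcf7, Notum, Ror1, Ror2 and Ryk. They made up 51 of the 21948 genes of the deposited table: 16 ligands, 10 Frizzled receptors, 5 co-receptors or other Wnt receptors (Lrp5, Lrp6, Ror1, Ror2, Ryk), 6 secreted Wnt-binding inhibitors (Sfrp1, Sfrp2, Sfrp4, Sfrp5, Frzb, Wif1), 3 Dickkopf genes, 7 R-spondins and their Lgr receptors, 2 feedback inhibitors (Axin2, Notum) and 2 TCF/LEF factors (Lef1, Tcf7). Wnt1, Wnt8a, Wnt8b and Dkk4, which the same rule would take, were not analysed here. PA1, from which the jaws form, and PA2, the next arch toward the tail, came from embryos of a CBA/Ca/J x C57BL/10 cross at E9.0 and E9.5 and then at E10.0 and at E10.5 (days of embryonic development). They were labelled either wildtype or Hoxa2-/-, with no other allele or agent named. From the earliest stage to the latest there were 5, 5, 5 and 3 libraries of wildtype PA1 and 4, 4, 5 and 3 of wildtype PA2. The groups labelled Hoxa2-/- had 4, 5, 5 and 3 libraries in PA1 and the same numbers in PA2. Per the series text both arches came from a single embryo. All values are scaled read counts (CPM), and a difference is given as log2 of (CPM + 1), which understates the change of low genes. Stages are listed from the earliest to the latest throughout.

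Wnt proteins are secreted, lipid-modified signals. In the canonical branch a Wnt binds a Frizzled receptor together with Lrp5 or Lrp6, which protects beta-catenin from destruction so that it can act with TCF/LEF factors on target genes, among them the feedback inhibitors Axin2 and Notum. Other branches run through Ror1, Ror2, Ryk and some Frizzleds and steer cell polarity and movement. Secreted frizzled-related proteins and Wif1 bind the ligand, Dickkopf proteins block the Lrp co-receptors, and R-spondins acting through Lgr receptors keep Frizzleds at the cell surface. In the pharyngeal arches, Wnts from the covering epithelium and from the crest-derived mesenchyme are known to act on the outgrowth and patterning of the facial primordia.

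Recovered reads per library ran from 8912251 to 20619153, so that 3 reads corresponded to 0.140 to 0.328 CPM. The targeted gene went against its label: mean Hoxa2 in PA2 was 22.3, 40.7, 47.5 and 58.3 CPM in wildtype embryos and 28.7, 60.7, 97.7 and 132 CPM in those labelled Hoxa2-/-. The genotype is therefore given below as a label only. The 24 wildtype libraries of all stages but E10.0 did not overlap the other 44 libraries in 19 of 18428 tested genes. Of these 0 are members, which at so small a share is not read as a result about the members. Ski, for example, ran from 26.3 to 108 CPM in the former and from 9.28 to 22.8 CPM in the latter. At these 3 stages the label and this division of the libraries cannot be told apart. At E10.0 it does not separate the labels. In 7 libraries the summed CPM of yolk sac genes or of red cell genes exceeded 5 times the median of their group, with 73185 CPM of red cell genes in wildtype PA2 at E9.0 replicate 2 as the highest; counts led with below were also made without these libraries. Arch mesenchyme genes such as Twist1, Prrx1 and Dlx2 were present in every library, with a summed level of 8 markers of 337 to 825 CPM, and 8 epithelial markers summed to 414 to 1421 CPM. Macrophage markers summed to at most 17.9 CPM. In such bulk samples fewer cells of a type and less RNA per cell cannot be told apart.

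Levels between genes were compared as CPM per kilobase of exon, averaged over all 68 libraries. Among ligands the epithelial ligand gene Wnt6 was highest at 12.0 CPM per kilobase, followed by Wnt5a, the best known ligand of the noncanonical branch, at 9.99, and Wnt5b at 6.06. Wnt3a, Wnt2b and Wnt10b were the lowest ligands, at 0.0692, 0.0402 and 0.0196, and Wnt3a was listed at 0 in 27 and Wnt10b in 41 of the 68 libraries. Some receptor transcripts stood above these: Fzd2 led the Frizzleds at 27.4 CPM per kilobase, before Fzd7 at 16.7, Fzd1 at 10.1 and Fzd4 at 7.78, whereas Fzd5 reached 0.107. Fzd2 ran from 67.8 to 124 CPM over the 68 libraries. Ryk led the other receptors at 20.4 (31.7 to 139.7 CPM), and Lrp6 at 5.11 stood above Lrp5 at 1.17. Of the inhibitors, Frzb and Sfrp1 were highest at 19.8 and 19.3, with Dkk1 at 8.43. Lgr4 at 10.3 was the main Lgr receptor transcript beside Lgr5 at 0.472 and Lgr6 at 0.198, and Tcf7 stood at 18.5 against 5.81 for Lef1. These per-length levels are given as an order without a test. 45 members reached 1 CPM in at least 3 libraries and were tested; Wnt2b, Wnt3a, Wnt10b, Wnt16, Sfrp5 and Rspo4 did not, and their highest group mean was 1.03 CPM, for Rspo4 in a group of 4 libraries.

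**Figure D1:**
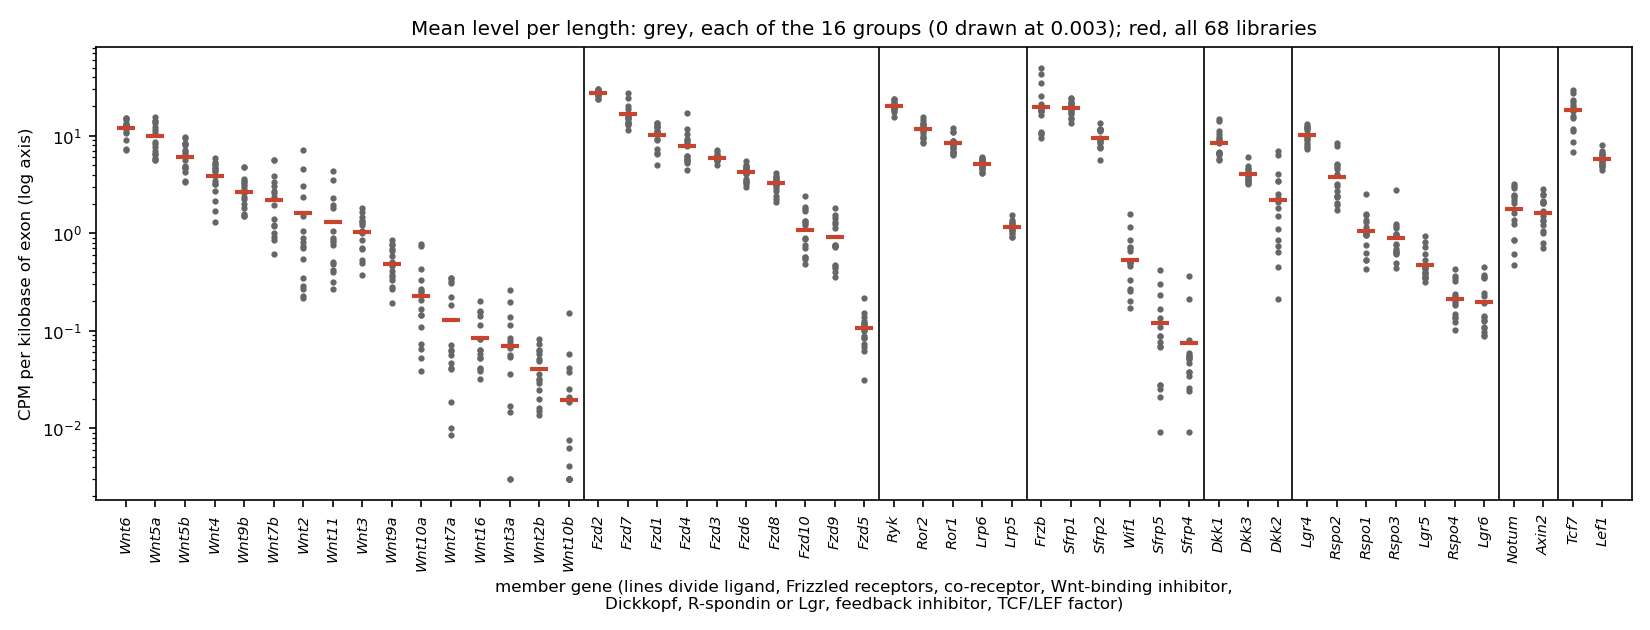
Mean level per length of all 51 members, in CPM per kilobase of exon on a log axis, with the genes in families divided by lines. Grey dots are the 16 groups of arch, label and stage and red bars the mean of all 68 libraries; Fzd2 is the highest at 27.4 and Wnt10b the lowest at 0.0196.

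Comparing PA2 with PA1, separately for each label and stage, asked which members distinguish the arches. In wildtype embryos more members passed at the 2 early stages than later, as was so for all tested genes. The groups of E10.5 held only 3 libraries each. Fzd4 stayed higher in PA2 at all 4 wildtype stages, and Wnt4 was lower in PA2 early on. At E10.5 Rspo2, Dkk1 and Lgr6 were lower in PA2. Of the 45 tested members, the number higher or lower in PA2 at an adjusted p under 0.05 in wildtype embryos was 14 (7 higher and 7 lower) at E9.0, and 14 (13 higher and 1 lower) at E9.5. Of all 18428 tested genes 18.7%, 10.2% higher and 8.53% lower, passed at E9.0 and 26.3%, 12.7% higher and 13.7% lower, at E9.5. It was 5 (2 higher and 3 lower) at E10.0 and 4 (1 higher and 3 lower) at E10.5, beside backgrounds of 5.94%, 4.51% higher and 1.43% lower, and 1.52%, 0.868% higher and 0.651% lower. With the label Hoxa2-/- it was 20 (11 higher and 9 lower) at E9.0 and 7 (5 higher and 2 lower) at E9.5, beside backgrounds of 24.6%, 12.1% higher and 12.5% lower, and 9.58%, 6.12% higher and 3.47% lower. At the later stages it was 3 (1 higher and 2 lower) and 3 (1 higher and 2 lower), beside 4.23%, 3.13% higher and 1.1% lower, and 1.37%, 0.982% higher and 0.385% lower. The count of 20 depended on the fit: it was 8 when the 2 groups were fitted by themselves, 14 without Hoxa2-/- PA1 at E9.0 replicate 1, and 13 higher and 5 lower by edgeR. The late counts were also unsteady. That of the label Hoxa2-/- at E10.5 was 0 by edgeR and 0 to 2 over the libraries left out in turn, and at E10.0 it fell to 1 without Hoxa2-/- PA2 replicate 1. In wildtype embryos at E10.0 it fell to 2 without PA1 replicate 4 and was 3 without PA1 replicate 5 or PA2 replicate 1 or 5. Blocked on the embryo, since both arches of an embryo are paired, the counts at E10.0 were 9 in wildtype and 5 with the label Hoxa2-/-; at the other stages the block moved none of the arch counts by more than 1.5 times. At E9.0, 12 members passed in the same direction under both labels, which is 12 of 14 in wildtype and 12 of 20 with the label Hoxa2-/-. At E9.5 it was 6 of 14 and 6 of 7, at E10.0 2 of 5 and 2 of 3, and at E10.5 2 of 4 and 2 of 3. No member passed in opposite directions under the 2 labels at any stage. The median log2 difference of the tested members lay between -0.18 and 0.23 over the 8 contrasts, against -0.02 to 0.01 for all tested genes. Altogether 30 members passed in at least 1 of these contrasts and 15 in none. Matching shares of all tested genes were not counted for the overlap between labels or for passing in any contrast. Neither is therefore read as particular to the members. Beside these counts, at E9.0 all 4 heart genes found were higher in PA2 under both labels, and 6 of 8 arch mesenchyme markers in wildtype embryos and 4 of 8 with the label Hoxa2-/- were lower in PA2 (1 was higher with that label), with median log2 differences of -0.83 and -0.54. Markers of some other tissues lay higher in PA2 as well. In wildtype embryos at E9.0, pharyngeal endoderm markers summed to 41.0 to 57.7 CPM in PA1 and 110.3 to 151 in PA2, those of ganglion neurons and glia to 82.9 to 125 and 142 to 255, and those of the mesoderm core to 39.7 to 60.5 and 78.7 to 131. The endoderm sums stayed apart at wildtype E9.5 (40.4 to 50.5 and 118 to 133 CPM) and at E10.0 (24.1 to 33.5 and 73.1 to 102), as did the mesoderm sums (31.3 to 68.9 and 98.0 to 139, then 15.6 to 34.4 and 60.3 to 86.2). Endothelial sums overlapped between the wildtype arches at every stage. Their medians in PA1 and PA2 were 265 and 253 CPM at E9.0 and 213 and 264 at E9.5. At E10.0 they were 170 and 252 CPM, and at E10.5 144 and 160. The part of all these markers in the members' differences, that of Fzd4 among them, was not tested.

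**Figure D2:**
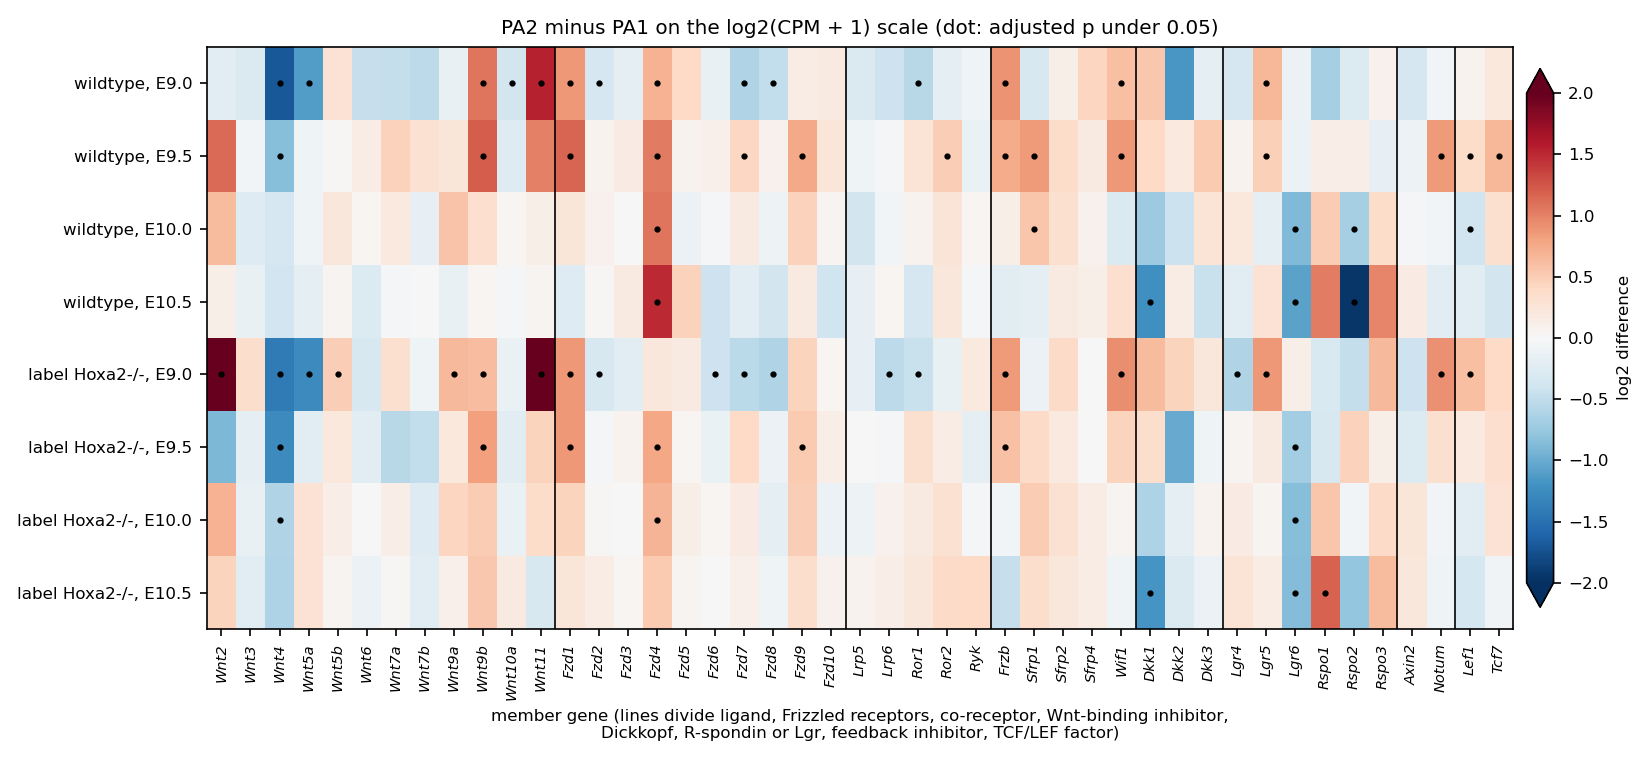
Log2 difference of PA2 minus PA1 for the 45 tested members (columns, in families) in each label and stage (rows); red is higher in PA2, blue is lower, and a dot marks an adjusted p under 0.05. The column of Fzd4 carries dots in 6 of the 8 rows and that of Wnt4 in 5, and the rows of E10.5 carry 4 dots in wildtype and 3 with the label Hoxa2-/-.

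Fzd4 (ENSMUSG00000049791, chromosome 7, 89404355 to 89413134 on GRCm38), a Frizzled receptor that also binds the non-Wnt ligand norrin, was higher in PA2 at every wildtype stage. At E9.0 the wildtype libraries stood at 37.8, 34.5, 34.6, 41.7 and 29.9 CPM in PA1 and at 60.6, 51.5, 67.8 and 53.7 CPM in PA2. At E9.5 they stood at 30.1, 31.9, 22.8, 26.6 and 36.6 in PA1 and 58.0, 49.1, 57.9 and 84.2 in PA2. At E10.0 they stood at 39.7, 35.7, 30.7, 43.9 and 33.5 in PA1 and 90.7, 92.6, 71.6, 68.2 and 69.7 in PA2, and at E10.5 at 37.4, 42.3 and 38.5 in PA1 and 111, 135 and 95.3 in PA2. The lowest wildtype PA2 library exceeded the highest PA1 library at each stage, and the PA2 level rose with stage while no PA1 library exceeded 43.9 CPM. The log2 difference was 0.69 (SE 0.19, adjusted p 0.0061), 1.04 (SE 0.19, adjusted p 5.3e-05), 1.07 (SE 0.18, adjusted p 1.5e-05) and 1.497 (SE 0.23, adjusted p 6.0e-06). With the label Hoxa2-/-, PA2 libraries stood at 74.2, 53.4, 19.9 and 65.9 CPM at E9.0, where replicate 3 stood below all PA1 libraries, at 72.5, 65.0, 63.3, 75.4 and 70.4 at E9.5, at 68.8, 64.3, 59.6, 53.7 and 61.0 at E10.0 and at 63.0, 55.4 and 48.2 at E10.5. PA1 with that label ran from 30.4 to 45.1, 28.5 to 54.6, 34.8 to 45.5 and 36.6 to 39.7 CPM. The arches overlapped at E9.0 but at no later stage, and the log2 difference was 0.23 (adjusted p 0.44), 0.77 (0.0021), 0.68 (0.014) and 0.52 (0.40). Without replicate 3 of PA2 at E9.0, a library with 478 CPM of yolk sac genes, the difference at that stage was 0.64 (adjusted p 0.0036). The call at E10.0 was lost without Hoxa2-/- PA2 at E10.0 replicate 1 (adjusted p 0.052).

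**Figure D3:**
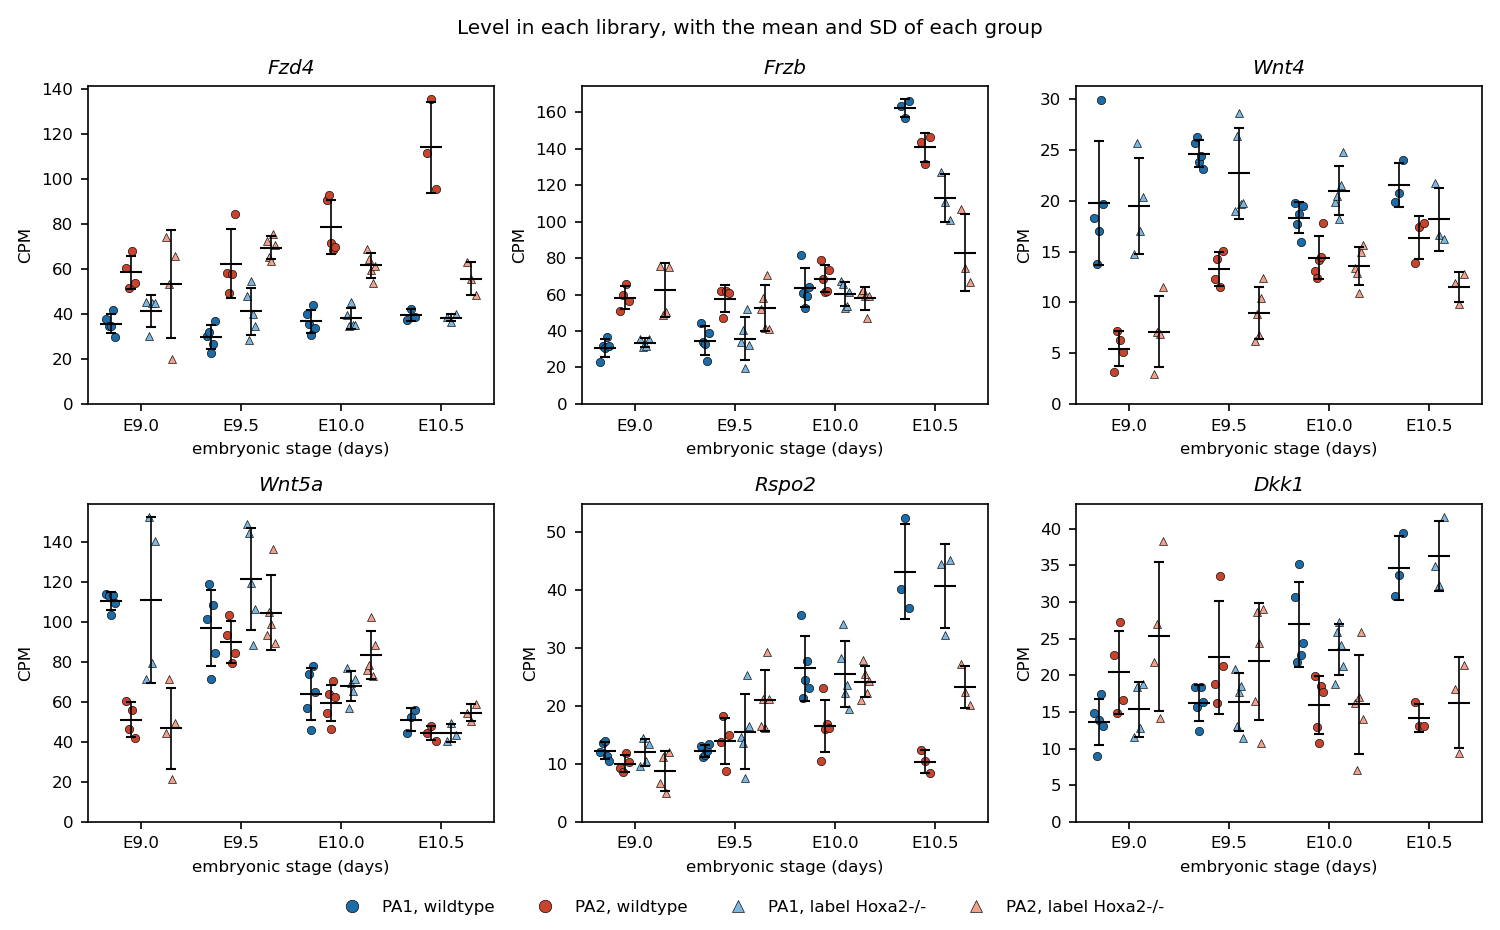
CPM of 6 members in every library by stage: circles are wildtype and triangles the label Hoxa2-/-, blue PA1 and red PA2, and the bars give the mean and SD of each group. Fzd4 separates the wildtype arches at all 4 stages, Wnt4 and Wnt5a separate them at E9.0, and Rspo2 and Dkk1 at E10.5, where wildtype PA1 runs from 36.9 to 52.5 CPM of Rspo2 and PA2 from 8.43 to 12.3.

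Fzd1, a canonical Wnt receptor, was also higher in PA2, at the 2 early stages and under both labels. Wildtype PA1 stood at 27.1, 33.3, 23.4, 23.0 and 30.9 CPM at E9.0 and PA2 at 65.0, 34.8, 55.6 and 52.2. At E9.5 PA1 stood at 14.9, 34.6, 14.4, 25.1 and 17.4 and PA2 at 44.4, 35.6, 58.3 and 49.97. In embryos labelled Hoxa2-/- the ranges were 24.1 to 30.6 in PA1 and 34.6 to 74.8 in PA2 at E9.0, and 22.6 to 40.7 and 41.0 to 71.7 at E9.5. The arches did not overlap in any of these 4 comparisons. The log2 difference was 0.87 (SE 0.22, adjusted p 0.0026) and 1.16 (SE 0.22, adjusted p 7.2e-05) in wildtype embryos and 0.87 (SE 0.23, adjusted p 0.0034) and 0.87 (SE 0.20, adjusted p 0.0026) with the label Hoxa2-/-. At E10.0 and E10.5 it lay between -0.25 and 0.44 and did not pass under either label. Of the other Frizzleds, those that passed at E9.0 (Fzd2, Fzd6, Fzd7 and Fzd8) were lower in PA2. Those that passed at E9.5 (Fzd7 and Fzd9) were higher. Fzd6 passed only with the label Hoxa2-/- (-0.41), a call lost without single libraries. Its difference was -0.22 without Hoxa2-/- PA2 at E9.0 replicate 3. Fzd7, a receptor of mesenchymal and progenitor cells, was lower in PA2 at E9.0 (64.6 to 80.6 against 95.6 to 122 CPM in wildtype, log2 difference -0.60, adjusted p 0.0021; -0.54 and 0.0070 with the label Hoxa2-/-) and higher at wildtype E9.5 (0.41, 0.032). Fzd2 and Fzd8 were lower in PA2 at E9.0 by log2 differences of -0.33 and -0.49 in wildtype and -0.32 and -0.61 with the label Hoxa2-/-. Fzd9, a low Frizzled of 2.08 CPM on average, was higher in PA2 at E9.5 by 0.76 and 0.53. Leaving out single libraries ended the calls of Fzd2 and Fzd8 under both labels, of Fzd7 at wildtype E9.5 and with the label Hoxa2-/- at E9.0, and of Fzd9 with that label, with adjusted p up to 0.11 and 0.25 for Fzd2 (without wildtype PA2 at E9.0 replicate 2 and Hoxa2-/- PA2 at E9.0 replicate 4), 0.17 and 0.12 for Fzd8 (without wildtype PA2 at E9.0 replicate 2 and Hoxa2-/- PA2 at E9.0 replicate 4), 0.17 and 0.068 for Fzd7 (without wildtype PA1 at E9.5 replicate 1 and Hoxa2-/- PA1 at E9.0 replicate 1) and 0.12 for Fzd9 (without Hoxa2-/- PA2 at E9.5 replicate 1). Fzd3, Fzd5 and Fzd10 passed in no arch contrast. Among the other receptors, Ror1 was lower in PA2 at E9.0 under both labels (-0.55, adjusted p 0.0032; -0.45, 0.018), though in neither once the libraries with other tissue were left out, and Ryk and Lrp5 passed in none.

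Among the ligands, Wnt4 (ENSMUSG00000036856, chromosome 4, 137277489 to 137299726), which can signal through either branch, had the largest negative difference between PA2 and PA1 at E9.0 and E9.5 under both labels. At E9.0 wildtype PA1 stood at 18.3, 13.8, 17.1, 29.95 and 19.7 CPM and PA2 at 3.14, 7.22, 6.29 and 5.14. Under the label Hoxa2-/- PA1 stood at 14.8, 25.7, 17.0 and 20.4 and PA2 at 2.98, 7.06, 6.91 and 11.5. At E9.5 wildtype PA1 stood at 25.7, 26.3, 23.8, 24.4 and 23.1 and PA2 at 12.3, 14.3, 11.5 and 15.1. There, under the label Hoxa2-/-, PA1 stood at 19.0, 26.4, 28.7, 19.7 and 19.8 and PA2 at 6.21, 8.91, 6.75, 10.4 and 12.4. No PA2 library reached the lowest PA1 library of its label and stage. The log2 difference was -1.69 (SE 0.19, adjusted p 1.3e-09) and -0.85 (SE 0.19, adjusted p 0.00091) in wildtype embryos and -1.42 (SE 0.20, adjusted p 4.6e-07) and -1.27 (SE 0.18, adjusted p 5.4e-07) with the label Hoxa2-/-. At E10.0 and E10.5 it was -0.34 and -0.38 in wildtype (adjusted p 0.32 and 0.93). With the label Hoxa2-/- it was -0.60 and -0.61; only the value at E10.0 passed (adjusted p 0.044, up to 0.15 without Hoxa2-/- PA1 at E10.0 replicate 5).

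Wnt5a, abundant in the mesenchyme of growing buds and arches, passed between the arches at E9.0 and at no later stage. Wildtype PA1 libraries were close together at 114, 113, 103, 113 and 109 CPM and PA2 stood at 60.3, 46.2, 56.1 and 41.8. Under the other label PA1 stood at 71.3, 152, 79.3 and 140.2 and PA2 at 44.3, 71.4, 21.6 and 49.3, so that the highest PA2 library reached the lowest of PA1 and replicate 3 of PA2 was the lowest of all. Log2 differences of the arches were -1.11 (SE 0.19, adjusted p 1.8e-05) and -1.27 (SE 0.20, adjusted p 4.3e-06), the latter with an adjusted p of 0.059 when only the compared groups were fitted. At wildtype E9.5 PA1 stood at 101, 119, 71.2, 108 and 84.3 CPM and PA2 at 93.2, 103, 79.2 and 84.5, which overlapped, and from that stage on the log2 difference lay between -0.20 and 0.29 without passing. At E9.0, without the libraries with other tissue, the Wnt5a difference was -1.09 (adjusted p 0.00014) in wildtype and -0.95 (adjusted p 0.00027) with the label Hoxa2-/-. Its receptor gene Ror2 had a wildtype difference of -0.18 at E9.0 (adjusted p 0.51) and was higher in wildtype PA2 at E9.5 by 0.49 (adjusted p 0.025, 0.14 without wildtype PA1 at E9.5 replicate 3). The co-receptor gene Lrp6 was lower in PA2 labelled Hoxa2-/- at E9.0 (-0.53, adjusted p 0.031, 0.31 without Hoxa2-/- PA2 at E9.0 replicate 3). Arch mesenchyme markers summed to 560.2 to 636 CPM in wildtype PA1 and 351 to 417 CPM in PA2 at E9.0, and to 505 to 616 and 337 to 512 CPM with the label Hoxa2-/-; their part in the Wnt5a difference was not tested.

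Wnt9b, a ligand of the facial surface ectoderm, was higher in PA2 at the 2 early stages. Wildtype PA1 stood at 5.96, 7.32, 6.82, 6.35 and 7.41 CPM and PA2 at 16.8, 11.01, 20.6 and 14.2 at E9.0. At E9.5 they stood at 4.21, 11.9, 4.17, 5.69 and 8.31 and at 13.5, 21.0, 18.8 and 12.3. In embryos labelled Hoxa2-/- PA1 and PA2 ran from 6.41 to 10.9 and 9.94 to 20.1 at E9.0, where they overlapped, and from 6.64 to 8.39 and 10.2 to 16.3 at E9.5. The log2 difference was 1.07 (SE 0.21, adjusted p 0.00018) and 1.21 (SE 0.21, adjusted p 3.2e-05) in wildtype and 0.62 (SE 0.23, adjusted p 0.036) and 0.83 (SE 0.20, adjusted p 0.0038) with the label Hoxa2-/-. The call with that label at E9.0 was lost without Hoxa2-/- PA2 at E9.0 replicate 2 (adjusted p 0.15). Of 8 epithelial markers, 2 were higher and 2 lower in wildtype PA2 at E9.0, and 3 and 2 at E9.5. Of all tested genes 10.2% were higher and 8.53% lower at E9.0, and 12.7% and 13.7% at E9.5. The part of epithelial cells in the Wnt9b difference was not tested. Wnt6, Wnt3, Wnt7a and Wnt7b, other ligands of epithelia, passed in no arch contrast, and Wnt6 ran from 16.3 to 35.1 CPM in wildtype PA1 and 15.2 to 16.8 in PA2 at E9.0. Other ligands had single calls at E9.0. Wnt10a, low at 0.559 CPM on average, passed in wildtype (-0.37, with 0 to 0.267 CPM in PA2 and 0.209 to 0.552 in PA1). With the label Hoxa2-/- Wnt5b passed (0.49, adjusted p 0.0093, 10.1 to 15.7 against 7.63 to 9.66 CPM). So did Wnt9a with that label (0.65), low at 1.61 CPM on average. The calls of Wnt10a and Wnt9a were lost without single libraries (adjusted p up to 0.11 without wildtype PA2 at E9.0 replicate 5 and 0.15 without Hoxa2-/- PA1 at E9.0 replicate 2).

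Wnt11 and Wnt2 are described here after their values were seen, because single libraries decided their levels. Wnt11, a noncanonical ligand known from the outflow tract of the heart, stood at 14.6, 4.28, 20.2 and 19.5 CPM in wildtype PA2 replicates 1, 2, 4 and 5 at E9.0, and the summed level of 4 heart genes in the same libraries was 658, 19.9, 623 and 625.4 CPM. In wildtype PA1 Wnt11 stood at 3.29, 1.79, 4.25, 9.94 and 2.45 CPM, with heart genes at 17.8, 15.0, 8.92, 22.4 and 14.8 CPM. PA2 labelled Hoxa2-/- stood at 28.5, 19.3, 6.44 and 18.2 CPM of Wnt11 and 699, 369, 54.1 and 421 CPM of heart genes, and PA1 at 2.185 to 4.58 and 13.9 to 34.9 CPM. The libraries with little heart RNA in PA2, replicate 2 in wildtype and replicate 3 with the label Hoxa2-/-, were also the lowest in Wnt11. In wildtype PA2 at E9.5 Wnt11 was 7.05, 5.05, 21.4 and 4.82 CPM beside 19.7, 26.1, 564 and 117 CPM of heart genes, with the third library listed the highest in both. The log2 difference between the arches at E9.0 was 1.54 (SE 0.48, adjusted p 0.018) in wildtype, lost without wildtype PA2 at E9.0 replicate 4 (adjusted p 0.076), and 2.09 (SE 0.51, adjusted p 0.0016) with the label Hoxa2-/-. The part of heart RNA in it was not tested. Wnt2, also known from heart and vessels, stood at 9.29, 3.53, 3.69 and 48.4 CPM in PA2 labelled Hoxa2-/- at E9.0 against 0.382, 0.794, 4.08 and 1.14 in PA1. Its log2 difference there was 2.16 (SE 0.65, adjusted p 0.011), and 1.40 without Hoxa2-/- PA2 at E9.0 replicate 4 (adjusted p 0.13). Replicate 3 of PA1 labelled Hoxa2-/- at E9.5 stood far above its group in Wnt2, Dkk2 and Wnt11. Wnt2 was 41.6 CPM against 4.11 in the next library, Dkk2 50.03 against 6.33, and Wnt11 26.6 against 6.14. Its 8 epithelial markers summed to 1421 CPM, the highest of all 68 libraries, while its heart genes summed to 9.65 CPM. Its 6 endothelial markers summed to 412 CPM, the highest of its group, where the lowest was 168 CPM. In PA2 labelled Hoxa2-/- at E9.0 replicate 4 they summed to 437 CPM, the highest of all 68 libraries. Replicate 4 of wildtype PA1 at E9.0 (22.5 CPM of Wnt2) and of Hoxa2-/- PA2 at E10.0 (6.92) held 288 and 265 CPM, inside their groups' ranges. Both are among the 7 libraries with other tissue. Their yolk sac genes summed to 64.3 and 283 CPM, against group medians of 6.72 and 3.88. The former also had the highest epithelial sum of its group, at 1170 CPM. The part of these markers was not tested.

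**Figure D4:**
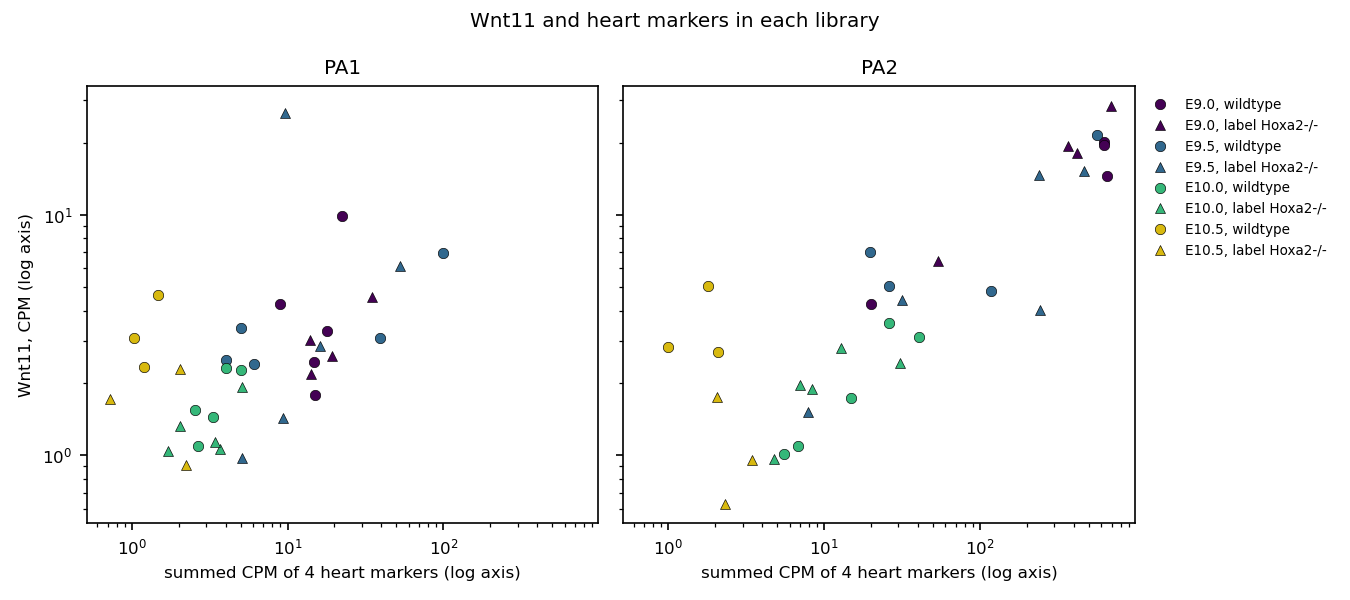
Wnt11 in CPM (log axis) against the summed CPM of 4 heart genes (log axis) in each library of PA1 (left) and PA2 (right), colored by stage, with circles for wildtype and triangles for the label Hoxa2-/-. The 8 PA2 libraries with the most heart RNA hold 14.6 CPM of Wnt11 or more, up to 28.5 CPM at E9.0, and PA1 labelled Hoxa2-/- at E9.5 replicate 3 stands apart with 26.6 CPM at 9.65 CPM of heart genes.

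The upstream sequences of genes that moved between the arches at E9.0 and E9.5 under both labels are shown so that their letters can be read beside those values: Fzd1 and Wnt9b, higher in PA2, and Wnt4, lower in PA2, with the feedback target Axin2, which passed in no arch contrast, for comparison. Each is the RefSeq window of up to 250 bases before the gene's start (GRCm38.p6), 5′ to 3′ on the gene's strand, in lower case; for Wnt4 only the 104 bases outside annotated exons are given, and the windows of Fzd4 and Frzb overlap exons and are not shown. Capitals mark matches, on either strand, of CTTTGA (a core of TCF/LEF sites), CTGTCA (a core of MEIS sites) or TGATNNAT (a HOX-PBX site).
Fzd1, chr5:4758217-4758466, minus strand: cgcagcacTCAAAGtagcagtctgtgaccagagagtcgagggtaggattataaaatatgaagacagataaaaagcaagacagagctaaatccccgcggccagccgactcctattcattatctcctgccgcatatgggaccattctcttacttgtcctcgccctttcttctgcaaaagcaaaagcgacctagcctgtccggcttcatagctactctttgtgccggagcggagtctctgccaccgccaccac
Wnt9b, chr11:103749822-103750071, minus strand: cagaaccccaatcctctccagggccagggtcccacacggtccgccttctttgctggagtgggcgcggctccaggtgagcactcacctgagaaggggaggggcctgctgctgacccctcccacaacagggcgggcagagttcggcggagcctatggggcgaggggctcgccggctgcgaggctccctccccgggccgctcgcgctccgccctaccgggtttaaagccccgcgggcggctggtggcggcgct
Wnt4, chr4:137277385-137277488, plus strand: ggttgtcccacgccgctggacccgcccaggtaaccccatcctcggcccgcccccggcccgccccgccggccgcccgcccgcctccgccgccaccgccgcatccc
Axin2, chr11:108920099-108920348, plus strand: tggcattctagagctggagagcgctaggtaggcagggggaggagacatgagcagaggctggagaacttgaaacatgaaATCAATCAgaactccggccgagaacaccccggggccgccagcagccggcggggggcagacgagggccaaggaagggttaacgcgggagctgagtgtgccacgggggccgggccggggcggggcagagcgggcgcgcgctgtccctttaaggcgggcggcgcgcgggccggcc
Fzd1 holds a TCF/LEF match at position -242 from its start and Axin2 a HOX-PBX match at -172, while Wnt9b and the printed stretch of Wnt4 hold none of the 3 words. The part of the Wnt4 window that overlaps an exon, not printed, holds a MEIS match at -130. Over all RefSeq windows of 250 bases, the TCF/LEF word was in 13.8% of 32851 windows and 7 of 42 member windows, the MEIS word in 15.9% of 32851 windows and 3 of 42 member windows and the HOX-PBX word in 7.68% of 32851 windows and 1 of 42 member windows; 35 of the 51 members had a window in the table, some of them more than 1. Such a match is a description of letters and says nothing of binding.

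Of the secreted inhibitors, Frzb, Sfrp1 and Wif1 were higher in wildtype PA2 at 1 or more early stages, and Dkk1 was lower there at E10.5. Frzb (secreted frizzled-related protein 3, ENSMUSG00000027004, chromosome 2, 80411970 to 80447625), which binds Wnts outside the cell, stood at 23.0, 32.0, 30.6, 36.9 and 31.9 CPM in wildtype PA1 and 50.9, 59.7, 66.0 and 56.3 in PA2 at E9.0. At E9.5 they stood at 44.3, 34.2, 33.1, 23.5 and 38.7 and at 61.7, 46.9, 61.8 and 60.7. In embryos labelled Hoxa2-/- PA1 stood at 35.4, 31.0, 32.0 and 35.7 and PA2 at 75.6, 49.0, 50.2 and 75.3 at E9.0, and the arches ran from 19.9 to 52.0 and 40.8 to 70.6 at E9.5, where they overlapped. Log2 differences of the arches were 0.90 (SE 0.17, adjusted p 6.1e-05) and 0.74 (SE 0.17, adjusted p 0.00095) in wildtype and 0.85 (SE 0.18, adjusted p 0.00027) and 0.58 (SE 0.16, adjusted p 0.011) with the label Hoxa2-/-. The last was 0.39 (adjusted p 0.088) without Hoxa2-/- PA1 at E9.5 replicate 3. At E10.5 Frzb stood at 164, 157 and 166 CPM in wildtype PA1 and 144, 132 and 147 in PA2, at a log2 difference of -0.20 that did not pass (adjusted p 1.0). Sfrp1 was higher in wildtype PA2 at E9.5, with 98.0, 85.5, 122 and 117 against 37.1, 72.4, 60.6, 73.2 and 52.4 CPM, by 0.85 (SE 0.18, adjusted p 0.00036), and at E10.0 by 0.55 (adjusted p 0.035, up to 0.10 without wildtype PA2 at E10.0 replicate 2). Wif1, at 1.30 CPM on average, was higher in PA2 at wildtype E9.5 and at E9.0 with the label Hoxa2-/- by 0.86 and 0.93, and at wildtype E9.0 by 0.60, a call lost without wildtype PA2 at E9.0 replicate 2 (adjusted p 0.11). Sfrp2 and Sfrp4 passed in no arch contrast.

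Dkk1, the secreted blocker of Lrp5 and Lrp6, separated the arches at E10.5 under both labels. Wildtype PA1 stood at 30.8, 33.6 and 39.4 CPM and PA2 at 16.3, 13.1 and 13.0. Labelled Hoxa2-/-, PA1 stood at 34.9, 32.3 and 41.6 and PA2 at 18.1, 9.36 and 21.4. On the log2 scale PA2 differed by -1.23 (SE 0.31, adjusted p 0.020) and -1.18 (SE 0.31, adjusted p 0.035). Both calls rested on 3 libraries a group and were lost without single libraries, with adjusted p up to 0.14 without wildtype PA1 at E10.5 replicate 3 and 0.37 without Hoxa2-/- PA2 at E10.5 replicate 2. At E9.0 the difference had the opposite sign without passing, at 0.54 and 0.63. Dkk2 and Dkk3 passed in no arch contrast.

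Of the R-spondins, which raise the response to Wnt, Rspo2 parted the wildtype arches at E10.5 further than any other member: PA1 stood at 40.1, 52.5 and 36.9 CPM and PA2 at 12.3, 10.48 and 8.43, a log2 difference of -1.95 (SE 0.26, adjusted p 1.4e-07). At E10.0 PA1 stood at 35.7, 21.4, 24.4, 27.7 and 23.1 and PA2 at 10.6, 23.1, 16.1, 16.8 and 16.2, which overlapped, with -0.66 (SE 0.20, adjusted p 0.031) and an adjusted p of up to 0.16 without wildtype PA2 at E10.0 replicate 1. At E9.0 and E9.5 the difference was -0.27 and 0.13, and neither passed. With the label Hoxa2-/- at E10.5, PA1 stood at 44.5, 32.3 and 45.1 and PA2 at 27.2, 22.4 and 20.1. The arches did not overlap, and the log2 difference of -0.77 did not pass (adjusted p 0.15). Rspo1, named after its values were seen, went the other way at E10.5: PA2 stood at 4.81, 6.32 and 3.71 CPM against 1.96, 1.95 and 1.72 in wildtype PA1 (log2 difference 1.03, adjusted p 0.084) and at 4.04, 2.40 and 2.80 against 1.44, 0.784 and 0.272 with the label Hoxa2-/- (1.19, 0.027, up to 0.30 without Hoxa2-/- PA1 at E10.5 replicate 3). Rspo3 passed in none.

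The Lgr receptors of R-spondins differed among themselves. Lgr5 was higher in PA2 at E9.0, with 4.34, 2.82, 3.998, 3.31 and 3.39 CPM in wildtype PA1 and 7.36, 5.56, 4.91 and 7.09 in PA2 (0.66, SE 0.16, adjusted p 0.0027), and with 3.41 to 5.43 and 7.57 to 9.37 CPM with the label Hoxa2-/- (0.87, SE 0.17, adjusted p 0.00014). The arches did not overlap under either label. At wildtype E9.5 it was higher by 0.47 (adjusted p 0.027, 0.15 without wildtype PA2 at E9.5 replicate 3). Lgr6, named after its values were seen and low in both arches, was lower in PA2 from E9.5 or E10.0 on. Wildtype PA1 stood at 2.55, 1.81, 2.72, 1.82 and 3.06 CPM and PA2 at 1.27, 0.762, 0.328, 1.04 and 0.861 at E10.0, and at 3.16, 3.37 and 2.81 and 0.673, 1.16 and 1.053 at E10.5. Its log2 difference was -0.88 (adjusted p 0.00058) and -1.07 (0.0031, 0.050 without wildtype PA2 at E10.5 replicate 1) in wildtype and -0.69 (0.0082), -0.86 (0.0013) and -0.87 (0.038) at the last 3 stages with the label Hoxa2-/-. The last was lost without Hoxa2-/- PA2 at E10.5 replicate 3 (adjusted p 0.20). Lgr4, the most abundant of the 3, was lower in PA2 at E9.0 with the label Hoxa2-/-, at 90.1, 78.7, 77.4 and 66.5 CPM in PA1 and 70.0, 71.5, 25.1 and 52.3 in PA2 (-0.61, SE 0.21, adjusted p 0.024). Replicate 3 of PA2, the lowest and a library with yolk sac RNA (478 CPM), decided this call: without it the difference was -0.28 (adjusted p 0.32).

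Of the feedback and nuclear genes, Axin2, the common feedback target of canonical signalling, passed in none of the 8 arch contrasts, with log2 differences from -0.42 to 0.25; at E9.5, for example, wildtype PA1 stood at 7.49, 9.13, 3.49, 7.94 and 9.16 CPM and PA2 at 7.19, 4.80, 5.69 and 9.12. Notum, a secreted enzyme that removes the lipid from Wnts, was higher in PA2 at wildtype E9.5 (5.42, 4.55, 3.71 and 3.53 against 1.20, 3.25, 0.888, 2.004 and 2.91 CPM, 0.85, SE 0.26, adjusted p 0.013) and at E9.0 with the label Hoxa2-/- (2.81, 2.30, 2.74 and 4.25 against 0.687, 0.794, 1.59 and 1.51 CPM, 0.91, SE 0.28, adjusted p 0.012). Each call was lost without 1 library, wildtype PA1 at E9.5 replicate 3 (adjusted p 0.065) and Hoxa2-/- PA2 at E9.0 replicate 4 (0.059). Tcf7 was higher in wildtype PA2 at E9.5, at 87.2, 83.9, 76.5 and 61.8 against 51.3, 54.4, 34.0, 61.0 and 43.5 CPM (0.67, SE 0.16, adjusted p 0.0012). Lef1 was higher in PA2 labelled Hoxa2-/- at E9.0, at 70.6, 70.7, 72.2 and 68.03 against 47.8, 45.5, 42.0 and 48.5 CPM (0.61, SE 0.14, adjusted p 0.00079), with no overlap. In wildtype embryos Lef1 was higher in PA2 at E9.5 (0.37, adjusted p 0.029) and lower at E10.0 (-0.40, 0.038), and both calls were lost without single libraries (adjusted p up to 0.19 without wildtype PA1 at E9.5 replicate 3 and 0.14 without wildtype PA2 at E10.0 replicate 3).

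Whether an arch difference itself changed from E9.0 to E10.5 was tested as the difference of both contrasts. In wildtype embryos 5 members passed, against a background of 3.35%, 1.13% higher and 2.21% lower. The difference of PA2 minus PA1 moved toward PA1 for Dkk1 by -1.77 (adjusted p 0.0049), Rspo2 by -1.68 (adjusted p 0.00081) and Frzb by -1.11 (adjusted p 0.0073), and toward PA2 for Rspo1 by 1.69 (adjusted p 0.0064) and Wnt4 by 1.31 (adjusted p 0.0055). For Wnt4 this is the loss of an early deficit in PA2, from a mean of 5.45 ± 1.76 CPM (SD, n = 4) at E9.0 to 16.4 ± 2.15 (n = 3) at E10.5, while PA1 stood at 19.8 ± 6.09 (n = 5) and 21.5 ± 2.15 (n = 3). For Frzb it is the loss of the early excess in PA2, and for Dkk1 and Rspo2 the level in PA1 rose while the change in PA2 did not pass, as given below. For the label Hoxa2-/- 8 members passed (background 7.33%, 4.07% higher and 3.26% lower). Dkk1, Frzb and Rspo1 moved as in wildtype, by -1.81, -1.32 and 1.49. Wnt5a moved toward PA2 by 1.56 (adjusted p 0.00080), and Lef1, Lgr6, Wif1 and Wnt11 toward PA1 by -0.96, -0.99, -1.02 and -2.41. The corresponding wildtype values of Wnt5a and Lef1 were 0.92 and -0.31 (adjusted p 0.080 and 0.52), and the labels were not tested against each other in this. The wildtype count was 8 without wildtype PA2 at E9.0 replicate 2. That of the label Hoxa2-/- was 5 without PA1 replicate 1 of E9.0, PA1 replicate 1 or 3 of E10.5 or PA2 replicate 1 or 3 of E10.5. With the embryo as a block the counts were 10 and 14, and when only the groups being compared were fitted 11 and 5. Calls of Lgr6, Rspo1, Wif1 and Wnt11 with the label Hoxa2-/- were lost without single libraries, with adjusted p up to 0.11 (without Hoxa2-/- PA1 at E10.5 replicate 1), 0.066 (Hoxa2-/- PA1 at E10.5 replicate 3), 0.13 (Hoxa2-/- PA2 at E10.5 replicate 2) and 0.13 (Hoxa2-/- PA1 at E10.5 replicate 1).

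The label Hoxa2-/- was compared with wildtype within each arch and stage. At E10.0, where both labels lie on the same side of the division of the libraries, 0 of 45 members passed in PA2 and 0 in PA1, where 0.0814% and 0% of all genes did. edgeR on recovered reads gave 0 and 0, and 4 and 1 members had an unadjusted p under 0.05. Wnt5a in PA2 at E10.0 stood at 54.2, 63.9, 46.6, 70.3 and 62.1 CPM in wildtype and 75.9, 78.2, 102, 72.8 and 88.2 with the label Hoxa2-/- (log2 difference 0.49, SE 0.18, adjusted p 0.54), and Fzd4 at 90.7, 92.6, 71.6, 68.2 and 69.7 and 68.8, 64.3, 59.6, 53.7 and 61.0 CPM (-0.34, SE 0.18, 0.66). At E10.5 in PA2, 3 members were higher and 6 lower with the label Hoxa2-/- (background 10.3%, 6.48% higher and 3.85% lower), a stage at which the label cannot be told apart from the division above. Fzd4 was lower, from 111, 135 and 95.3 CPM in wildtype to 63.0, 55.4 and 48.2 CPM (-1.02, SE 0.23, adjusted p 0.0020), and Rspo2 was higher, at 27.2, 22.4 and 20.1 against 12.3, 10.48 and 8.43 CPM (1.09, SE 0.26, adjusted p 0.0029). In both genes PA2 thus lay nearer to PA1, and the labels did not overlap. The label's effect in PA2 did not pass against that in PA1 for either gene (lowest adjusted p 0.78, for Rspo2). Frzb, named below, went the other way, with an arch difference of -0.20 in wildtype and -0.46 with the label Hoxa2-/-. Lgr5 was lower in PA2 at 4.04, 3.36 and 4.77 against 7.60, 13.4 and 7.93 CPM (-1.04, adjusted p 0.00027) and in PA1 too (-0.91, 0.0047), so that this difference was seen in both arches. Frzb, Wif1, Fzd3 and Wnt10a were lower in PA2, with log2 differences of -0.78, -0.90, -0.33 and -0.46 and Tcf7 and Lrp5 higher by 0.72 and 0.55. These 6 calls were each lost without at least 1 library, with adjusted p up to 0.21 for Fzd3 without wildtype PA2 at E10.5 replicate 1.

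At the other stages few members differed between the labels. In PA2 at E9.0 Lef1 was higher, at 70.6, 70.7, 72.2 and 68.03 against 51.5, 52.1, 31.8 and 33.7 CPM (0.76, SE 0.14, adjusted p 0.00010), and Sfrp4 was lower (-0.89, adjusted p 0.0072, 0.098 without wildtype PA2 at E9.0 replicate 2), which makes 2 of 45 beside a background of 14%, 6.59% higher and 7.44% lower. At E9.5 Lgr4 alone passed in PA2 (0.63, background 4.48%, 1.73% higher and 2.75% lower), with an adjusted p of 0.047 that reached 0.23 without wildtype PA2 at E9.5 replicate 1. In PA1, where mean Hoxa2 was at most 0.519 CPM, 0 members passed at E9.0 (background 2.08%, 0.83% higher and 1.25% lower; 0 by edgeR and 3 at an unadjusted p under 0.05), 4 were higher at E9.5 (Lgr4, Fzd1, Fzd6 and Sfrp1, background 23.6%, 11.4% higher and 12.2% lower) and 3 were lower at E10.5 (Lgr5, Wnt9b and Wnt10a, background 3.05%, 1.5% higher and 1.55% lower). Lgr4 in PA1 at E9.5 stood at 36.4, 58.1, 32.2, 45.9 and 51.7 CPM in wildtype and 70.3, 72.5, 73.8, 57.8 and 75.4 with the label Hoxa2-/- (0.66, SE 0.18, adjusted p 0.0071). The calls of Fzd1, Fzd6, Sfrp1, Wnt9b and Wnt10a were lost without single libraries, with adjusted p up to 0.21 for Sfrp1 without wildtype PA1 at E9.5 replicate 1. Over these 3 stages 12 calls were made in PA2 and 7 in PA1. The former count was 6 without Hoxa2-/- PA2 at E10.5 replicate 3, and the latter 12 and 4 without replicates 2 and 3 of wildtype PA1 at E9.5. With the compared groups fitted alone, 15 members passed in PA2 at E10.5, 1 in PA1 at E9.5 and 6 in PA1 at E10.5, and edgeR called 8 in PA1 at E9.5. The effect of the label in PA2 minus that in PA1, in which a shift shared by both arches cancels, passed for 0 members at any stage, with backgrounds of 0%, 0.0109%, 0.0163% and 0.038% of all genes. edgeR and a fit blocked on the embryo also gave 0, and 5, 4, 1 and 3 members had an unadjusted p under 0.05. For Fzd4 this difference was -0.47, -0.27, -0.39 and -0.98, with an SE of 0.33 and an adjusted p of 0.91 at E10.5.

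From E9.0 to E10.5, between 20 and 29 of the 45 tested members changed in each arch and label. In wildtype PA1 29 (20 rose and 9 fell, background 42.5%, 21% higher and 21.5% lower) passed, in PA1 with the label Hoxa2-/- 24 (16 rose and 8 fell, background 31.2%, 14.8% higher and 16.5% lower), in wildtype PA2 24 (19 rose and 5 fell, background 36.9%, 17.5% higher and 19.4% lower) and in PA2 with that label 20 (14 rose and 6 fell, background 30.9%, 15.8% higher and 15.1% lower). The last count was 11 when only its own groups were fitted. 9 members rose in all 4 contrasts: the ligands Wnt3, Wnt5b, Wnt7b and Wnt10a, the receptor Fzd10, the inhibitors Sfrp2 and Dkk2, and the feedback inhibitors Axin2 and Notum. Fzd9 and Tcf7 fell in all 4. The share of all tested genes that rose or fell in all 4 was not counted, so these numbers are not read as particular to the members. In PA2 labelled Hoxa2-/- the rises of Wnt3, Sfrp2 and Dkk2 were lost without single libraries, the adjusted p reaching 0.16, 0.094 and 0.064 without E10.5 replicate 1, and these 3 and the fall of Fzd9 were lost when its groups were fitted alone (adjusted p 0.096, 0.15, 0.0999 and 0.075). By edgeR that of Dkk2 had an adjusted p of 0.13. Axin2 stood at 5.43, 6.02, 5.69, 5.38 and 6.48 CPM at E9.0 and 13.7, 13.5 and 14.7 at E10.5 in wildtype PA1, and at 4.33, 4.49, 4.80 and 4.005 and 15.8, 14.7 and 16.7 in wildtype PA2. Labelled Hoxa2-/-, PA1 ran from 4.18 to 6.36 at E9.0 and from 9.25 to 13.2 at E10.5, and PA2 from 2.68 to 4.60 and 13.1 to 14.0. Its log2 changes in wildtype PA1, PA1 labelled Hoxa2-/-, wildtype PA2 and PA2 labelled Hoxa2-/- were 1.14, 0.96, 1.63 and 1.61 (largest adjusted p 0.00041), and the stages did not overlap in any of them. In the same order of groups Notum rose by 1.63, 2.05, 1.48 and 1.048, and Tcf7 went the other way, with changes of -1.09, -0.80, -1.67 and -1.27. It stood at 62.4, 65.8, 54.6 and 48.1 CPM in wildtype PA2 at E9.0 and 22.8, 13.2 and 17.1 at E10.5. Lef1, a related factor, rose in wildtype PA1 by 0.43 (adjusted p 0.011, 0.057 without wildtype PA1 at E10.5 replicate 3) and fell in PA2 with the label Hoxa2-/- by 0.68 (0.00031).

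**Figure D5:**
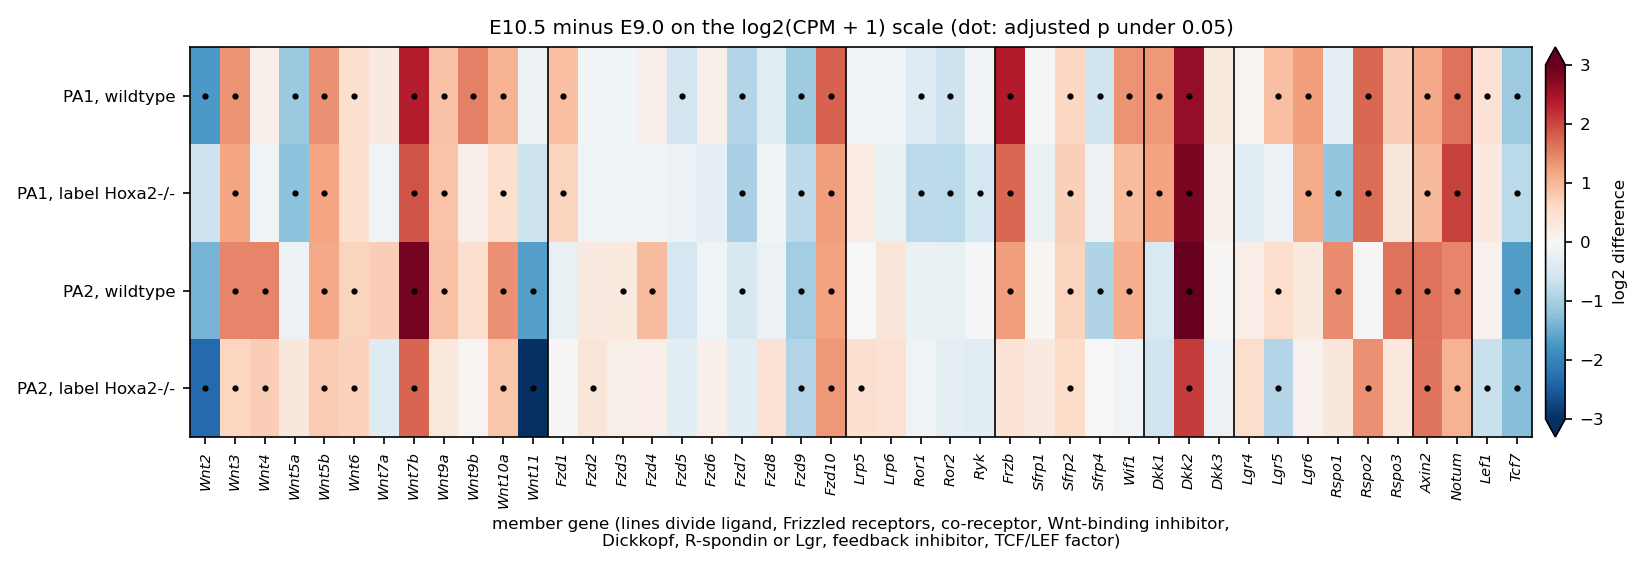
Log2 change from E9.0 to E10.5 for the 45 tested members (columns, in families) in each arch and label (rows); red rose, blue fell, and a dot marks an adjusted p under 0.05. The columns of Wnt7b, Dkk2, Fzd10, Axin2 and Notum are red with dots in all 4 rows, Tcf7 and Fzd9 are blue with dots in all 4, and Wnt5a is blue with dots in the PA1 rows alone.

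Among the ligands Wnt7b, of epithelial origin in many organs, had the largest rise of the 4 that rose in every group. It stood at 4.81, 3.36, 5.48, 7.94 and 2.80 CPM in wildtype PA1 at E9.0 and 27.5, 30.9 and 25.3 at E10.5, and at 3.45, 2.83, 4.25 and 1.57 and 22.9, 32.1 and 28.7 in PA2. Its log2 changes, in the order of groups above, were 2.36, 1.88, 2.88 and 1.75; those of Wnt3 were 1.34, 1.19, 1.47 and 0.63 and those of Wnt5b 1.36, 1.19, 1.13 and 0.75. In wildtype PA1, 2 of 8 epithelial markers rose and 5 fell (background 21% higher and 21.5% lower), with a median log2 change of -0.73. The part of epithelial cells in these rises was not tested. Wnt5a fell in PA1, from 114, 113, 103, 113 and 109 CPM at E9.0 to 44.5, 52.6 and 56.1 at E10.5 in wildtype (-1.10, SE 0.21, adjusted p 2.0e-05) and with a log2 change of -1.23 under the label Hoxa2-/-. In PA2 its change was -0.19 and 0.34 (adjusted p 0.53 and 0.25). Wnt4 rose in PA2 by 1.47 in wildtype and 0.73 with the label Hoxa2-/-, the latter lost without Hoxa2-/- PA2 at E9.0 replicate 1 (adjusted p 0.11), and changed by 0.16 and -0.08 in PA1 without passing. Wnt11 fell in PA2, with log2 changes of -1.64 and -3.05. Beside it the summed heart genes ran from 19.9 to 658 CPM at E9.0 and from 0.998 to 2.07 CPM at E10.5 in wildtype PA2, and from 54.1 to 699 and 2.06 to 3.44 CPM with the label Hoxa2-/-. The wildtype call was lost without wildtype PA2 at E10.5 replicate 1 (adjusted p 0.059), and the part of heart RNA was not tested.

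Among receptors and inhibitors, the Dickkopf gene Dkk2 had the largest rise in each of the 4 groups. It stood at 1.13, 0.321, 1.10 and 0.541 CPM in wildtype PA2 at E9.0 and 27.1, 28.1 and 23.2 at E10.5, and its log2 changes were 2.64, 2.83, 3.96 and 2.097. In wildtype PA1 it stood at 2.72, 0.922, 4.10, 19.9 and 0.196 CPM at E9.0, where replicate 4 reached the level of the E10.5 libraries (25.8, 25.9 and 19.1). In PA2 labelled Hoxa2-/- replicate 4 of E9.0 stood at 13.6 CPM, and that call was lost without Hoxa2-/- PA2 at E10.5 replicate 1 (adjusted p 0.064). Frzb rose in wildtype PA1 from 23.0, 32.0, 30.6, 36.9 and 31.9 to 164, 157 and 166 CPM (2.37, SE 0.18, adjusted p 8.0e-16), in wildtype PA2 by 1.26 and in PA1 labelled Hoxa2-/- by 1.72. In PA2 with that label it changed by 0.40 (adjusted p 0.10). Dkk1 rose in PA1 by 1.31 and 1.21 under the 2 labels and changed by -0.46 and -0.60 in PA2 (adjusted p 0.22 and 0.12). Rspo2 likewise rose in PA1, by 1.72 and 1.68. It changed by 0.04 in wildtype PA2 (adjusted p 0.91) but rose by 1.38 in PA2 labelled Hoxa2-/- (7.9e-06); these 2 values were not tested against each other. Fzd10 rose by 1.78, 1.25, 1.21 and 1.30 from means between 1.55 and 1.87 CPM. Fzd7, Ror1 and Ror2 fell in PA1 under both labels, with log2 changes of -0.87 and -0.97 for Fzd7, -0.62 and -0.82 for Ror2, and -0.40 and -0.78 for Ror1, the wildtype value of Ror1 being lost without wildtype PA1 at E10.5 replicate 2 (adjusted p 0.19). Fzd4 rose in wildtype PA2 by 0.95 (SE 0.22, adjusted p 0.00038), and in the other 3 groups it changed by -0.09 to 0.20 without passing. Over all 45 members the median change was 0.27 in wildtype PA1 and 0.28 in wildtype PA2, against 0.00 and -0.01 for all tested genes.

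Other genes of the pathway came from a list of 63 that are no members, of which 61 were tested: secretion, cytoplasmic transduction, nuclear cofactors, surface and feedback modulators, and planar polarity genes. Between the wildtype arches 11 higher and 8 lower, 15 higher and 1 lower, 3 higher and 1 lower and 0 higher and 3 lower in PA2 passed at the 4 stages, where 18.7%, 26.3%, 5.94% and 1.52% of all genes did. It was, with the label Hoxa2-/- 11 higher and 10 lower, 7 higher and 0 lower, 4 higher and 0 lower and 0 higher and 1 lower, beside 24.6%, 9.58%, 4.23% and 1.37%. The genes named next were chosen after their values were seen. Porcn, the enzyme that attaches the lipid to Wnts, was higher in PA2 at E9.0 and E9.5 under both labels, by log2 differences of 0.55 and 0.71 in wildtype and 0.89 and 0.52 with the label Hoxa2-/-. Tspan12, a membrane protein that works with Fzd4 in norrin signalling, was higher in PA2 at E9.0, E9.5 and E10.0, by 0.78, 0.62 and 0.58 in wildtype and 0.85, 0.65 and 0.53 with the label Hoxa2-/-. Daam2, a formin of the polarity branch, was higher at the same 3 stages, by 0.91, 1.35 and 0.60 in wildtype. The glypican gene Gpc4 changed side, lower in wildtype PA2 at E9.0 with a difference of -0.59 and higher at E9.5 and E10.0 by 0.98 and 0.90. From E9.0 to E10.5, 19 of the 61 rose and 11 fell in wildtype PA1 (background 42.5%, 21% higher and 21.5% lower) and 15 and 11 in wildtype PA2 (background 36.9%, 17.5% higher and 19.4% lower). Kremen2, a Dickkopf receptor, rose by 3.36, 2.91, 3.57 and 3.38 in wildtype PA1, PA1 labelled Hoxa2-/-, wildtype PA2 and PA2 labelled Hoxa2-/-, Apcdd1, a membrane inhibitor, by 1.89, 0.95, 1.90 and 0.999, and the transcription factor gene Sp5, a canonical target, changed by -1.44, -1.77, -2.03 and -2.32, opposite in sign to Axin2. Between the labels, Apc, the scaffold of the beta-catenin destruction complex, was lower in both arches at every stage but E10.0, with differences of -0.84, -0.67 and -0.68 in PA2 and -0.62, -0.56 and -0.76 in PA1, but not at E10.0 (0.32 and 0.28, adjusted p 0.60 and 1.0); at the former stages the label cannot be told apart from the division of the libraries. Leaving out single libraries was not run for these genes.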

How the data were processed

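Gene-level values of 68 polyA RNA libraries from manually dissected arches (SMART-seq v4 cDNA and Nextera XT libraries, per the labels' protocols) were used. The authors deposited a signal table of normalised values, which recomputation showed to be CPM scaled by TMM factors. Each value divided by the worth of 1 read gave a whole number (tolerance 0.01 reads), so read counts behind the deposited values were recovered for edgeR. The submitters' processing notes list mm10, bcl2fastq 2.18, TopHat2 2.1.1 and R 3.3.2; counting program, annotation and strand are not given in the sources used here, so overlapping genes cannot be told apart, and no molecular identifiers are described.

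Symbols were matched for 21921 of 21948 genes (GENCODE M21). limma 3.58.1 (R 4.3.3) was fitted to log2(CPM + 1) of the 18428 genes with at least 1 CPM in at least 3 libraries, with 16 group means, trended variance and two-sided Benjamini-Hochberg adjustment over all genes, threshold 0.05; all adjusted p-values are from it unless edgeR 4.0.16 is named. The code was tested on simulated data. Figures used Python 3.11.15 and matplotlib 3.10.9.

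Members and lists were chosen with earlier results of these data known. Named were Wnt5a, Fzd4, Axin2, Lef1 and Tcf7, members past the threshold at 2 or more stages in 1 direction within a label for the arches (up to 8 a direction), in all 4 groups for stage (up to 6 a direction), at E10.0 or in the difference of label effects (0 were), and the highest of each family per kilobase, with at least 5 CPM in a group except for the first 5; all others were named after their values were seen. Replicate numbers pair arches of 1 embryo, per the series text: 30 of 33 pairs had a correlation of deviations over 0.1 (median 0.35; -0.12 for 116 pairs of other numbers). Libraries are taken as separate embryos within a group.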

Additional observations from a re-analysis of the deposited data

Results flagged for a closer look

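Among 27 members examined, 25 library values stood apart from the rest of their group of 4 or 5 libraries by a gap test (Dixon, 95%). This covered 324 sets, each of 1 member in 1 group, and chance alone flags about 1 in 20. Wnt11, Wnt2, Rspo1, Lgr6 and Fzd7 were added after their values were seen. The number of flags can therefore not be set against that rate. Labels are given as deposited. Wnt2 was 41.6 CPM in Hoxa2-/- PA1 at E9.5 replicate 3 (others 0.407 to 4.11), 6.92 CPM in Hoxa2-/- PA2 at E10.0 replicate 4 (others 0.344 to 2.11), 48.4 CPM in Hoxa2-/- PA2 at E9.0 replicate 4 (others 3.53 to 9.29) and 22.5 CPM in wildtype PA1 at E9.0 replicate 4 (others 0.834 to 5.49). Dkk2 was 50.03 CPM in Hoxa2-/- PA1 at E9.5 replicate 3 (others 2.24 to 6.33), 13.6 CPM in Hoxa2-/- PA2 at E9.0 replicate 4 (others 0.341 to 2.08) and 19.9 CPM in wildtype PA1 at E9.0 replicate 4 (others 0.196 to 4.10). Wnt11 was 26.6 CPM in Hoxa2-/- PA1 at E9.5 replicate 3 (others 0.978 to 6.14), 6.97 CPM in wildtype PA1 at E9.5 replicate 4 (others 2.39 to 3.38) and 21.4 CPM in wildtype PA2 at E9.5 replicate 3 (others 4.82 to 7.05). Wnt9b was 8.39 CPM in Hoxa2-/- PA1 at E9.5 replicate 3 (others 6.64 to 7.13) and 15.1 CPM in wildtype PA1 at E10.0 replicate 1 (others 7.93 to 9.60). Wnt3 was 1.36 CPM in Hoxa2-/- PA2 at E9.0 replicate 1 (others 2.30 to 2.49) and 6.24 CPM in wildtype PA1 at E10.0 replicate 3 (others 3.003 to 3.91). Rspo1 was 7.33 CPM in Hoxa2-/- PA1 at E9.5 replicate 3 (others 0.783 to 2.44). Replicate 3 of PA1 labelled Hoxa2-/- at E9.5 held 6 of these values, those of Wnt2, Dkk2, Wnt11, Wnt9b, Rspo1 and Sfrp1. Its 8 epithelial markers summed to 1421 CPM and its 6 endothelial markers to 412 CPM.

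Receptors, inhibitors and nuclear factors held the others. Fzd2 was 90.5 CPM in Hoxa2-/- PA1 at E9.0 replicate 4 (others 115 to 116). Fzd4 was 30.4 CPM in Hoxa2-/- PA1 at E9.0 replicate 2 (others 44.7 to 45.1). Ryk was 115 CPM in wildtype PA1 at E9.0 replicate 4 (others 84.0 to 92.6) and 100.2 CPM in wildtype PA2 at E9.5 replicate 3 (others 90.3 to 91.6). Lgr4 was 57.8 CPM in Hoxa2-/- PA1 at E9.5 replicate 4 (others 70.3 to 75.4). Frzb was 47.0 CPM in Hoxa2-/- PA2 at E10.0 replicate 4 (others 59.3 to 62.6) and 46.9 CPM in wildtype PA2 at E9.5 replicate 2 (others 60.7 to 61.8). Sfrp1 was 108 CPM in Hoxa2-/- PA1 at E9.5 replicate 3 (others 68.5 to 79.7) and 159 CPM in Hoxa2-/- PA2 at E9.5 replicate 3 (others 88.7 to 98.1). Tcf7 was 61.4 CPM in Hoxa2-/- PA2 at E9.0 replicate 2 (others 74.1 to 75.7).

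The arch difference (PA2 minus PA1) itself differed between E10.5 and E9.0 by a test of that difference in limma (log2). In wildtype embryos the values were Dkk1 -1.77, Frzb -1.11, Rspo1 1.69, Wnt4 1.31 and Rspo2 -1.68. With the label Hoxa2-/- they were Wnt11 -2.41, Wif1 -1.02, Wnt5a 1.56, Dkk1 -1.81, Frzb -1.32, Lef1 -0.96, Rspo1 1.49 and Lgr6 -0.99.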

How the results depend on the processing

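Counts of member calls were recomputed with median-of-ratios scaling, a pseudocount of 0.25 or 5, a filter at 5 CPM or none, a block for the embryo, edgeR on recovered reads, fits of the compared groups alone, the 7 libraries with other tissue left out, and each library left out in turn. The following moved by more than 1.5 times. With only the compared groups, the stage count in PA2 labelled Hoxa2-/- was 11 (20 in the fit of all groups), and the counts of changed arch differences were 11 in wildtype (5) and 5 with the label Hoxa2-/- (8). Under the block for embryo, both arches of 1 embryo being paired, these last 2 counts were 10 and 14. No other count summed over stages, or of the change with stage, moved by that much outside the libraries left out in turn; counts at single stages did. The arch counts at E10.0 were 9 in wildtype (5) and 5 with the label Hoxa2-/- (3) under the block. With only the compared groups, the arch counts of the label Hoxa2-/- were 8 at E9.0 (20) and 5 at both E10.0 and E10.5 (3 and 3); the label counts were 0 at E9.0 (2), 0 at E9.5 (1) and 15 at E10.5 (9) in PA2, and 1 at E9.0 (0), 1 at E9.5 (4) and 6 at E10.5 (3) in PA1. By edgeR the arch count of the label Hoxa2-/- at E10.5 was 0 (3), and the label counts at E9.5 were 8 in PA1 (4) and 0 in PA2 (1). With a filter at 5 CPM the arch count of the label Hoxa2-/- at E10.5 was 1 (3) and the label count in PA2 at E9.0 was 1 (2), as it was without the libraries with other tissue, where that in PA1 at E9.5 was 7 (4). Without a filter the label count in PA2 at E9.5 was 0 (1). The cause was not tested. Over the libraries left out in turn, the arch counts ran from 33 to 39 in wildtype and 28 to 36 with the label Hoxa2-/-; the label counts from 0 to 0 in PA2 and 0 to 0 in PA1 at E10.0, and from 6 to 16 in PA2 and 4 to 12 in PA1 at the other 3 stages; the difference of label effects from 0 to 0; the stage counts from 24 to 29 (wildtype PA1), 21 to 24 (wildtype PA2), 22 to 24 (labelled PA1) and 15 to 24 (labelled PA2); and the changed arch differences from 5 to 8 in wildtype and 5 to 12 with the label Hoxa2-/-. Of the 199 calls of single members, 0 reversed direction under any of these settings. By edgeR 17 were lost, with the block 1, with only the compared groups 41 and without the libraries with other tissue 17. The other pseudocounts lost 6 and 8, and fitting without a filter lost 2. Over all pairs of a call and a library left out, the call was lost in 254 and kept in 1382. Members under about 1 CPM rest on few reads, and E10.5 groups hold 3 libraries each.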
